A study of Mus musculus with 12 samples.

Results

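The tumours compared here are the 8 subcutaneous B16mhgp100 melanomas of a 12-library mouse RNA-seq series: 4 that over-express Aoah and 4 that carry the vector. B16mhgp100 is a derivative of the B16 mouse melanoma line. All 8 grew in C57BL/6 mice and all received anti-PD1, an antibody that blocks an inhibitory receptor of T cells, at 200 µg a dose, 2 doses a week from day 10 after inoculation, 4 in all. Tumours were taken 1 day after the last dose. Both groups therefore carry the antibody, and the contrast is between the over-expressed gene and the vector alone. The labels do not say whether a line is 1 clone or a pool, nor that each tumour came from a mouse of its own, so the p-values below hold for the variation among these samples, which may be technical in part. The other 4 libraries are B16F10 tumours, 2 with Aoah and 2 with the vector, that received anti-PD1 with anti-CTLA4 from an earlier day. They serve only for a test of difference between models. In that test, tumour line, antibodies and first day of dosing change together and cannot be told apart. Every gene at 1 TPM or more (a level scaled to transcript length and to the library's total) in at least 4 of the 8 tumours was described, which kept 14228 of 32416 symbols. The files state no read depth, and TPM does not keep it.

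Aoah encodes acyloxyacyl hydrolase, an enzyme of phagocytes that removes fatty acyl chains from lipid A and so inactivates bacterial lipopolysaccharide. Bulk tumour RNA mixes the melanoma cells with the macrophages, lymphocytes and stromal cells around them. In growing tumours, poorly perfused zones switch on a hypoxia programme driven by the HIF transcription factors, which raises glucose uptake, glycolysis and vessel growth factors, while well supplied zones carry the dividing cells.

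Aoah itself stood at 17.9, 22.5, 14.0 and 3.91 TPM in Aoah tumours 1 to 4, while Vector tumours 1 to 4 held 7.58, 0.89, 2.43 and 1.57 TPM. The groups overlapped, because Aoah 4 lay below Vector 1. On the log2(TPM + 1) scale Aoah tumours were higher by 1.96 (SE 0.59), with a 2-sided exact permutation p of 0.0571 where 0.0286 is the smallest that 70 arrangements allow. Without Aoah 4 the groups no longer overlapped and the difference was 2.44 (SE 0.48), with a 2-sided exact permutation p of 0.0571 over 35 arrangements. Transcripts of the introduced gene and of Aoah made by host phagocytes cannot be told apart in these values.

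Aoah 4 stands apart from the other 7 tumours, so each statement is given with and without it. Summed keratinocyte markers reached 11677 TPM in Aoah 4 against 90.2 to 262 in the others, and skeletal muscle markers 8901 against 62.9 to 1307, the highest of the rest being Vector 1. The skin keratin Krt10 was at 3281 TPM in Aoah 4, at 19.0 in Aoah 3, at 13.2 in Vector 2 and below 1 TPM in the others. Tnnc2, a troponin of fast muscle, was at 2211 TPM in Aoah 4 and 181.8 in Vector 1. None of the 20 keratinocyte or 20 muscle markers was at 0 in all 8 tumours. The 20 pigment cell markers were all expressed, summing to 9087 TPM in Aoah 4 and to 19737 to 34969.6 in the others. Ribosomal protein genes took 23.9% of all TPM in Aoah 4 and 11.02 to 13.4% elsewhere, and its median correlation with the other tumours was 0.837. Their part in the results was not tested, other than by leaving Aoah 4 out.

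No gene passed an adjusted p of 0.05 (limma, Benjamini-Hochberg) over the 8 tumours, a share of 0.0%, and the words higher and lower are used below for values only. An unadjusted p below 0.05 was reached by 158 genes that were higher in Aoah tumours (1.11%) and 192 that were lower (1.35%), together 2.46%, and without Aoah 4 by 467 (3.28%) and 708 (4.98%), together 8.26%. The groups did not overlap at all for 104 genes higher in Aoah (0.731%) and 733 lower (5.15%), together 5.88%. Scaling by medians of ratios moved that split to 222 higher and 425 lower. Without Aoah 4 there were 421 higher (2.96%) and 891 lower (6.26%), together 9.22%, against which the counts below are to be read. The 104 and 733 genes are among them by definition, since leaving a tumour out cannot make separated groups overlap. For a gene separated over 8 tumours, separation without Aoah 4 is therefore no further check. Leaving out any 1 of the 8 tumours gave 140 to 421 higher and 881 to 1360 lower, since fewer tumours have to be separated. Differences were above 0 for 30.0% of all genes, with a median of -0.20, and for 44.6% without Aoah 4, with a median of -0.03.

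One gene passed in the fit without Aoah 4, the predicted gene Gm25777 (limma adjusted p = 0.000589), a share of 0.00703% of all genes, which was singled out after its values were seen. It was listed at 0 in Aoah 1, 2 and 3 and Aoah 4 held 14.7 TPM, where Vector 1 to 4 held 65.1, 68.4, 59.4 and 31.0 TPM. A ribosomal RNA gene, n-R5s185, chosen in the same way, was listed at 0 in all 4 Aoah tumours and at 6.18, 21.0, 15.0 and 7.37 TPM in the Vector tumours (limma adjusted p = 0.0524, and 0.149 without Aoah 4). Ribosomal 5S RNA has no usual poly(A) tail and the libraries were selected for poly(A), and a listed 0 can be a failed estimate, so no fold is given for either.

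**Figure D1:**
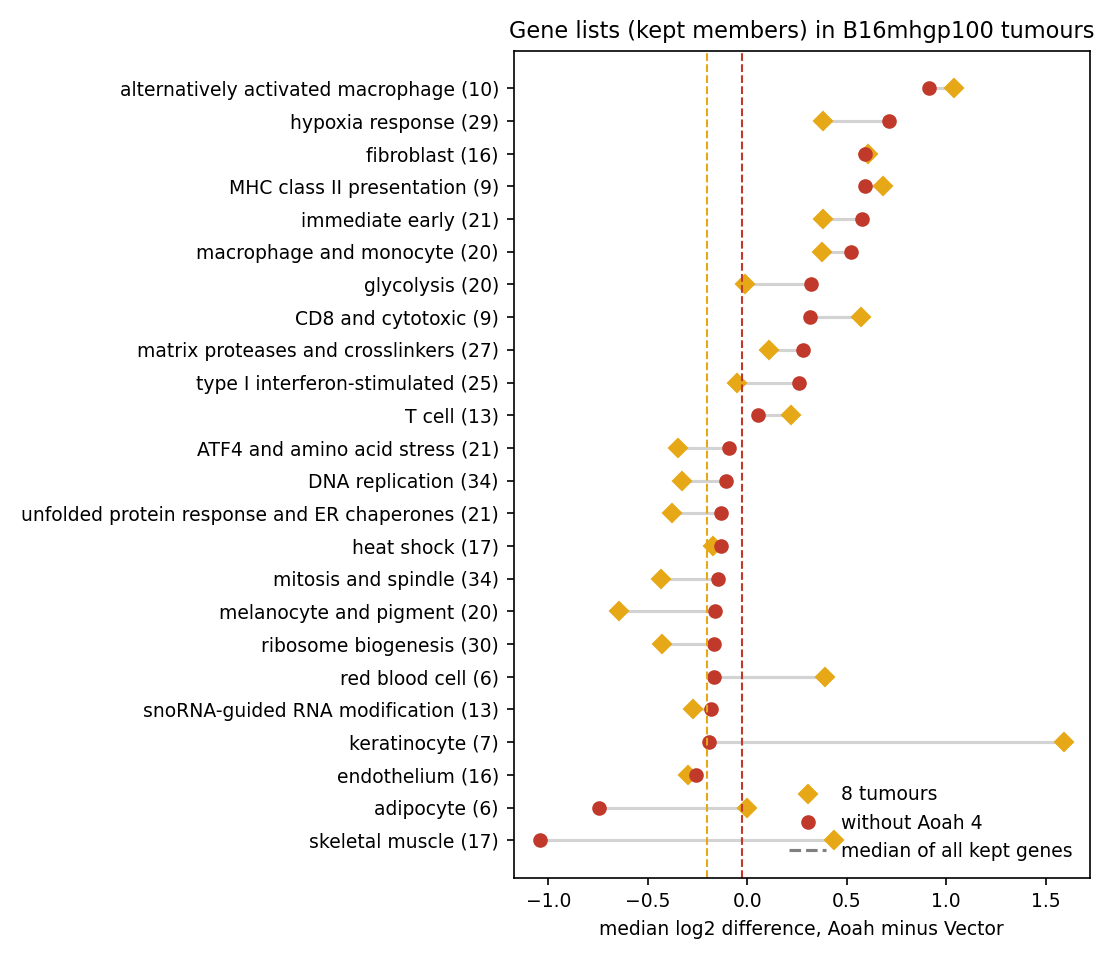
Median log2 difference (Aoah minus Vector) of each gene list on the horizontal axis, over 8 tumours (diamonds) and without Aoah 4 (circles); the number of kept members is in brackets and dashed lines mark the medians of all kept genes. The hypoxia list moves from 0.38 to 0.71 when Aoah 4 is left out, while the keratinocyte list moves from 1.59 to -0.19.

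Hypoxia response genes were mostly higher in Aoah 1 to 3. Of the 30 members of the list 29 were kept, 27 of these were higher in Aoah 1 to 3 on average and 20 did not overlap the Vector group, where 2.96% of all genes did so in that direction. The median difference was 0.71, against -0.03 for all genes. With Aoah 4 included, 23 of 29 were above 0, 3 did not overlap (Stc1, Higd1a and Hk2, where 0.731% of all genes did) and the median was 0.38. Leaving out 1 tumour at a time moved that median between 0.13, without Aoah 2, and 0.71, without Aoah 4. None passed the adjusted threshold in either fit. Differences ranged from -0.53 (Anln) to 1.11 (Stc1) over 8 tumours and from -0.15 (Pfkfb4) to 1.15 (Hilpda) over 7.

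Stc1, which encodes the secreted hormone stanniocalcin 1, was higher in all Aoah tumours. It stood at 10.2, 9.79, 10.9 and 14.2 TPM in the Aoah tumours, and the Vector tumours held 5.00, 5.09, 4.08 and 4.40 TPM. The groups did not overlap, and Aoah 4 was the highest. Group means were 11.3 ± 2.00 TPM (SD, n = 4) and 4.64 ± 0.48 TPM (SD, n = 4), a ratio of 2.42, or 2.22 without Aoah 4. On the log2 scale Aoah tumours exceeded Vector tumours by 1.11 (SE 0.20), and by 1.00 (SE 0.12) without Aoah 4, with limma adjusted p values of 0.694 and 0.207. The authors' deposited table lists Stc1 (ENSMUSG00000014813) at 1.59 on the log2 scale with 0.0455 as its adjusted p-value. The same adjusted p in the authors' deposited table belongs to 2 other identifiers, Retnla (ENSMUSG00000061100) at 6.30 and ENSMUSG00000120665, which was matched to no symbol, at 6.36 on the log2 scale. In B16F10 tumours the log2 difference of Stc1 was 0.03, and the difference between the models did not pass (limma adjusted p = 0.580, and 0.124 without Aoah 4).

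Members that act in mitochondria and lipid storage stood as follows. Higd1a, a small protein of the mitochondrial inner membrane induced by hypoxia, was at 146.3, 195.7, 172.2 and 462.9 TPM in Aoah tumours against 102.4, 131.8, 85.9 and 104.0 TPM in Vector tumours. Here again every Aoah tumour was above every Vector tumour. Hilpda, which blocks lipolysis in lipid droplets, was at 76.6, 98.4, 111.7 and 43.0 TPM against 52.5, 53.4, 30.7 and 35.8 TPM. Its Aoah 4 value lay inside the Vector range and the rest above it, with a ratio of means of 1.91, or 2.22 without Aoah 4. Bnip3, a mitophagy receptor, was at 460.4, 545.6, 513.3 and 134.3 TPM against 302.0, 448.9, 201.2 and 259.9 TPM, so that Aoah 4 was the lowest of all 8. Bnip3, Car9, Ero1a and Ankrd37 are outside the rule for named genes and were chosen after their values were seen.

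Secreted, surface and stress members of the list are given next. Vegfa, the main vessel growth factor, was at 201.2, 285.8, 290.6 and 43.4 TPM in Aoah tumours and at 153.3, 180.1, 87.5 and 115.3 TPM in Vector tumours. Car9, the carbonic anhydrase that exports acid equivalents, was at 118.8, 150.5, 141.1 and 50.6 TPM against 75.9, 105.9, 37.9 and 66.1 TPM. For both, Aoah 1 to 3 lay above all Vector tumours, and Aoah 4 lay below all Vector tumours for Vegfa and within them for Car9. In a separate list of angiogenic and secreted hypoxia-zone factors that also holds Vegfa, 8 of 18 kept genes were above 0, with a median of -0.04. Without Aoah 4 they were 11, with a median of 0.24, and Vegfa was the 1 member higher without overlap. Ero1a, an oxidase of protein folding in the endoplasmic reticulum, had a ratio of means of 1.51, or 1.89 without Aoah 4. Ddit4, an inhibitor of mTORC1, had a log2 difference of 0.13 (SE 0.41) over 8 tumours and of 0.59 (SE 0.12) without Aoah 4. Ankrd37, a HIF target, was at 15.6, 29.1, 15.7 and 17.7 TPM against 11.4, 16.1, 6.07 and 6.71 TPM, and overlapped through Vector 2 only.

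**Figure D2:**
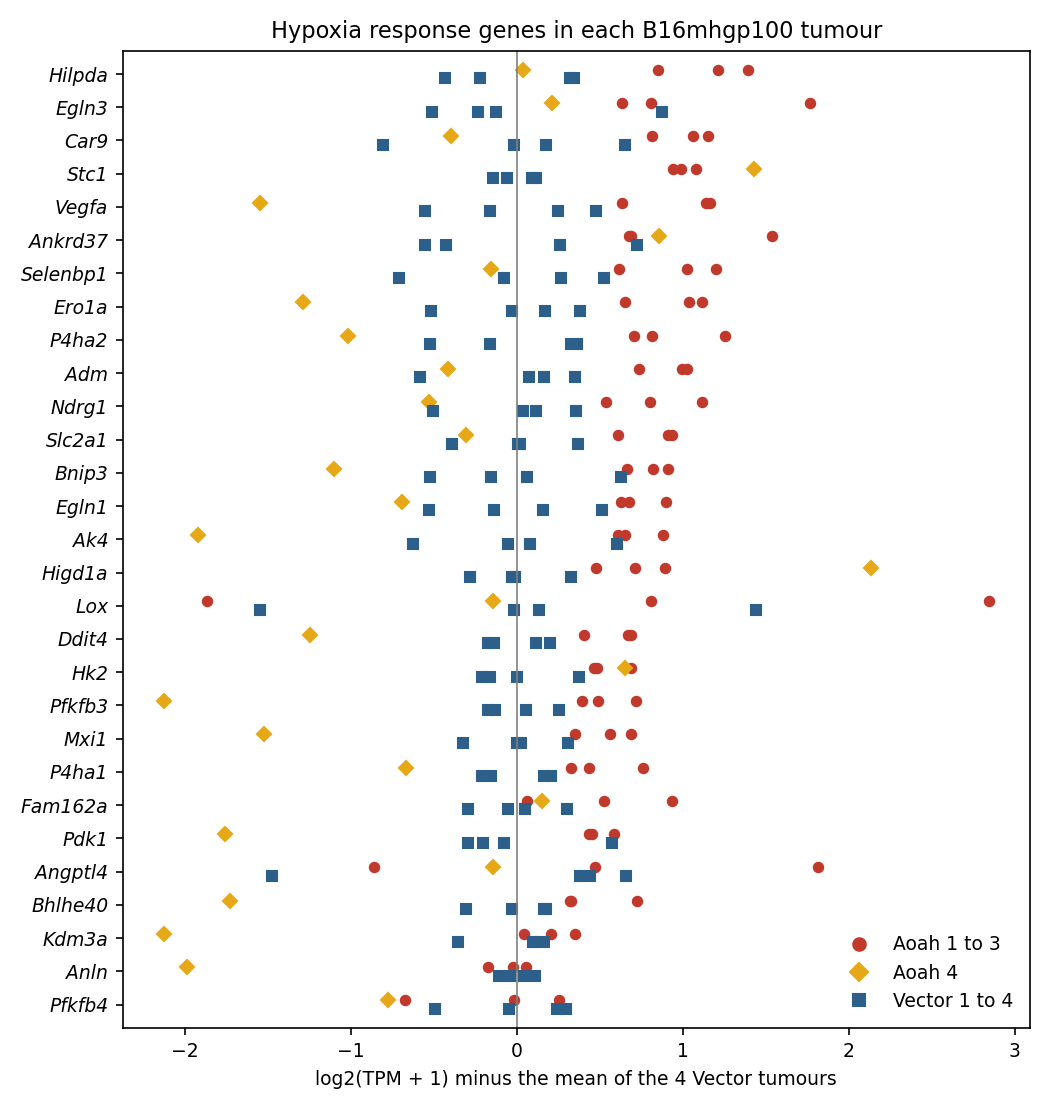
Each row is 1 kept member of the hypoxia response list; the horizontal axis gives log2(TPM + 1) of each tumour minus the mean of the 4 Vector tumours. Aoah 1 to 3 (circles) lie to the right of all Vector tumours (squares) in 20 of 29 rows, while Aoah 4 (diamonds) lies to the right of them in 4, those of Stc1, Higd1a, Hk2 and Ankrd37.

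Glucose handling followed the hypoxia list in part, and shares Slc2a1 and Hk2 with it. Of 20 kept glycolysis genes, 10 were above 0 over 8 tumours with a median of -0.01, and 19 were above 0 without Aoah 4 with a median of 0.32. Without Aoah 3 the median was -0.19. Non-overlapping and higher were 1 member, and 6 without Aoah 4, where 0.731% and 2.96% of all genes were so. Hk2, the inducible hexokinase, was at 166.3, 168.3, 193.6 and 189.4 TPM in Aoah tumours against 103.7, 156.0, 106.9 and 120.0 TPM in Vector tumours. All Aoah values were above all Vector values, a log2 difference of 0.57 (SE 0.18), or 0.55 (SE 0.15) without Aoah 4. Slc2a1, the glucose transporter GLUT1, was at 163.2, 204.8, 201.5 and 86.0 TPM against 108.0, 137.6, 81.1 and 107.2 TPM, and Aoah 4 alone of its group reached the Vector range. Eno2, an enolase, differed by 0.17 (SE 0.46) and by 0.68 (SE 0.14) without Aoah 4.

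HIF most often binds sites with the core letters ACGTG, so promoters of 5 members are shown where the letters are found near the start; they come from the RefSeq promoter table of build GRCm38.p6, a different build from the mm39 that the labels name for the expression values. Each run holds 80 of the 250 bases before the listed start, written 5′ to 3′ on the gene's strand, and capitals mark ACGTG or its reverse complement CACGT.
Car9 (chr4:43506946-43507025, plus strand): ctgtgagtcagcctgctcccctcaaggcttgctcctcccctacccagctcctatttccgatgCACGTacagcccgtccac
Slc2a1 (chr4:119108665-119108744, plus strand): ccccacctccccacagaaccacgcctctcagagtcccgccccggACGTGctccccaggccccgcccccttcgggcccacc
Hk2 (chr6:82774465-82774544, minus strand): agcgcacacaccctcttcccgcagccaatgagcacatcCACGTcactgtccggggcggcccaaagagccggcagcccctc
Bnip3 (chr7:138909572-138909651, minus strand): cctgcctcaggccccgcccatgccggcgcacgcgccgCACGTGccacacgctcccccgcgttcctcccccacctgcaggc
Ankrd37 (chr8:45999851-45999930, minus strand): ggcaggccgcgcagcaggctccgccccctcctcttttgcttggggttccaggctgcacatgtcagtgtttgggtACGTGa
In Bnip3 the 2 words overlap in a palindrome. Searched on both strands in the 250 bases before any listed start, ACGTG was present in 19 of the 24 kept hypoxia members with a promoter entry (79.2%) and in 10 of 19 glycolysis genes (52.6%). The same windows held it in 25.2% of the 10184 kept genes with an entry and in 18.5% of 27025 genes in the table. The list was drawn up from known HIF targets, so the share describes the list and no binding was measured.

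Infiltrate ran across the groups, and its values stand beside the hypoxia genes. The macrophage and monocyte list averaged, on the log2(TPM + 1) scale, 5.18, 6.38, 3.68 and 5.15 in Aoah 1 to 4 and 5.66, 3.67, 4.75 and 4.603 in Vector 1 to 4. On this average Aoah 3 and Vector 2 were the poorest in these markers, Aoah 2 and Vector 1 the richest. By summed TPM of the list, Vector 2 (3670) was above Vector 3 (3478) and Vector 4 (3340), and Aoah 1 (4688) above Vector 1 (4571). The hypoxia list averaged 6.13, 6.57, 6.15 and 4.98 in Aoah tumours and 5.78, 5.80, 5.29 and 5.55 in Vector tumours. Aoah 3, with few macrophage transcripts, exceeded every Vector tumour in the hypoxia average, as did Aoah 1 and Aoah 2. The part of infiltrate in the hypoxia difference was not tested. The first principal component without Aoah 4, with 41.4% of the variance, put Aoah 2 and Vector 1 at one end and Aoah 3 and Vector 2 at the other.

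**Figure D3:**
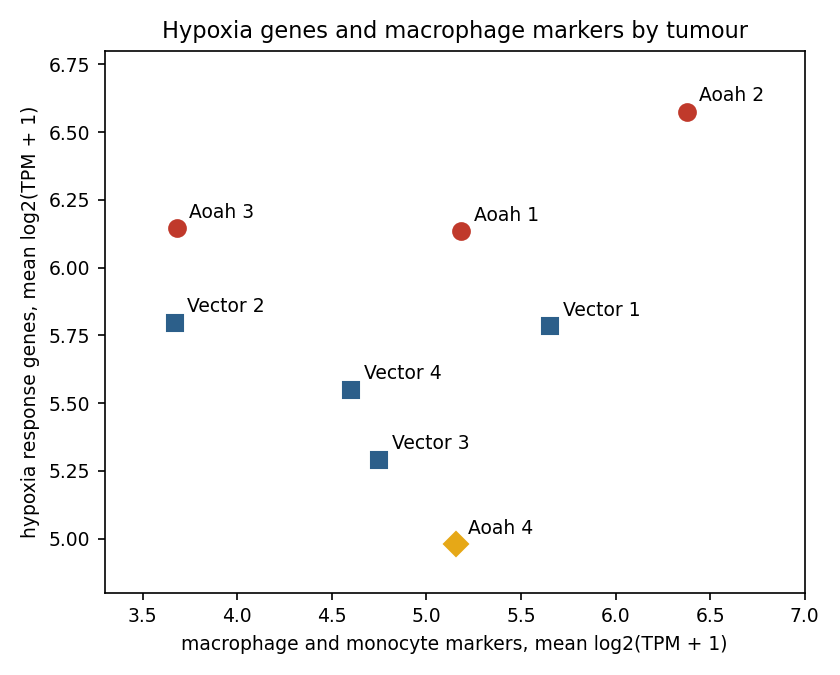
Mean log2(TPM + 1) of the 20 macrophage and monocyte markers (horizontal axis) and of the 29 hypoxia genes (vertical axis) in each of the 8 tumours. Aoah 1 to 3 lie at 6.13 to 6.57 on the vertical axis and the Vector tumours at 5.29 to 5.80. On the horizontal axis they span 3.68 to 6.38 and 3.67 to 5.66. Aoah 4 lies lowest on the vertical axis at 4.98.

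Immediate early genes were mostly higher. Of 21 kept immediate early genes, 19 were above 0 in both fits, with medians of 0.38 and 0.58. Higher without overlap were 1 over 8 tumours and 4 without Aoah 4, against 0.731% and 2.96% of all genes. Ier3, an early response gene that protects against cell death, was at 137.6, 179.1, 183.4 and 124.8 TPM in Aoah tumours against 91.8, 115.9, 69.3 and 90.3 TPM in Vector tumours, above them throughout. Fos, an AP-1 subunit, was at 42.6, 39.2 and 38.5 TPM in Aoah 1 to 3 and at 13.5 in Aoah 4, where the Vector tumours held 30.01, 23.2, 14.3 and 19.8 TPM. Junb, its partner, was higher by 0.80 (SE 0.27), or 0.87 (SE 0.26) without Aoah 4, and overlapped through Vector 1. Ppp1r15a (GADD34), which restores translation after stress, was at 23.5, 23.1, 28.9 and 82.3 TPM against 17.3, 16.9, 16.3 and 17.2 TPM, with no overlap. The metallothionein Mt2, a metal-binding stress protein, was at 1309, 1961, 1501 and 1885 TPM against 1015, 793.0, 1189.7 and 1201 TPM, again with no overlap. Mt2 belongs to the antioxidant and NRF2 list, in which 8 of 21 kept genes were above 0, or 12 without Aoah 4, and Ppp1r15a to none of the lists.

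Other genes with the smallest p values on the higher side came from several functions. Tent5a, a non-canonical poly(A) polymerase, was at 17.0, 17.9, 15.6 and 17.4 TPM in Aoah tumours and at 9.80, 10.6, 9.33 and 8.43 TPM in Vector tumours. That is a log2 difference of 0.77 (SE 0.17), and 0.76 (SE 0.11) without Aoah 4. Pagr1a, a subunit of histone methyltransferase complexes, was at 11.4, 11.98, 6.62 and 56.3 TPM against 1.45, 2.22, 0.86 and 0.46 TPM, a ratio of means of 17.3, or 8.01 without Aoah 4. Espn, an actin-bundling protein, was at 58.7, 62.1, 74.2 and 67.5 TPM against 33.9, 45.9, 13.4 and 26.6 TPM. No overlap was found for any of these 3, where 0.731% of all genes were higher without overlap, but they were named for a small p in these same data. Sertad1, a cell cycle regulator, Gbp8, a guanylate-binding protein induced by interferon, the cell polarity gene Llgl2 and the antiviral Ifitm3 also separated fully, with ratios of means of 1.71, 2.45, 1.68 and 1.38, and of 1.53, 2.70, 1.49 and 1.36 without Aoah 4. Bcl3, an NF-kB cofactor, and Anxa2, an annexin, overlapped through Vector 1, with log2 differences of 1.02 (SE 0.31) and 0.65 (SE 0.21), and of 1.00 and 0.60 without Aoah 4.

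Several genes came to the front only in the fit of 7 tumours, since Aoah 4 was far below the rest of its group. Itpk1, an inositol phosphate kinase, was at 51.9, 46.0, 53.4 and 12.1 TPM in Aoah tumours against 32.3, 30.3, 23.6 and 26.6 TPM, a log2 difference of 0.33 (SE 0.44) over 8 and 0.82 (SE 0.12) over 7. Zyx, the adhesion protein zyxin, was at 148.5, 153.2, 144.3 and 38.8 TPM against 115.1, 117.8, 102.8 and 98.3 TPM, so its sign turned from -0.02 to 0.45. Gtdc1, Ccrl2, a chemoattractant receptor homologue, and Hcar1, the lactate receptor, had ratios of means of 1.75, 2.02 and 1.68 without Aoah 4, and of 1.42, 1.68 and 1.34 with it. The matrix genes Plat, the tissue plasminogen activator, and Loxl2, a collagen crosslinker, were higher by 0.84 (SE 0.17) and 0.82 (SE 0.26) without Aoah 4, and by 0.48 (SE 0.36) and 0.28 (SE 0.52) with it. Those were the 2 non-overlapping members of 27 matrix proteases and crosslinkers without Aoah 4, where 2.96% of all genes were higher without overlap. None of that list separated over 8 tumours.

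Genes of mitosis and the spindle were mostly lower. Of 34 kept mitosis and spindle genes, 13 did not overlap and were lower in Aoah tumours, where 5.15% of all genes did so, and 15 without Aoah 4, where 6.26% did. Only 2 of 34 were above 0 in either fit, and medians were -0.44 and -0.15 against -0.20 and -0.03 for all genes. Fewer dividing cells and less RNA per cell cannot be told apart in bulk tumours. Mki67, which encodes the proliferation antigen Ki-67, was at 24.8, 27.96, 30.02 and 9.49 TPM in the Aoah tumours against 38.5, 48.1, 45.9 and 50.9 TPM. Even the highest Aoah tumour was below the lowest Vector tumour. Mean levels were 23.1 ± 9.31 TPM (SD, n = 4) and 45.9 ± 5.28 TPM (SD, n = 4), a ratio of 0.503, or 0.602 without Aoah 4. Cenpe, a kinetochore motor, was at 7.79, 8.32, 7.74 and 6.57 TPM against 9.93, 11.6, 13.5 and 13.3 TPM. Nusap1, a spindle microtubule protein, was at 22.3, 23.01, 22.3 and 12.2 TPM against 30.1, 28.2, 32.4 and 27.5 TPM. Both separated the groups fully, by -0.60 (SE 0.19) and -0.58 (SE 0.23) on the log2 scale, and by -0.54 (SE 0.13) and -0.37 (SE 0.08) without Aoah 4.

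Of 34 kept DNA replication genes, 33 were below 0, or 30 without Aoah 4. In each fit 4 were lower without overlap, where 5.15% of all genes were so over 8 tumours and 6.26% without Aoah 4. Prim1, the catalytic subunit of primase, was at 65.8, 60.1, 67.1 and 33.4 TPM in Aoah tumours against 76.2, 72.9, 85.5 and 74.3 TPM. The chromatin genes Atrx, Smc6 and Dek were lower without overlap only when Aoah 4 was left out, with ratios of 0.788, 0.764 and 0.749, and Aoah 4 held 68.5, 45.4 and 91.2 TPM, above every other tumour. Ccng1, a p53 target, was at 39.5, 40.1, 30.2 and 21.0 TPM against 47.7, 56.5, 59.0 and 46.7 TPM, with no overlap.

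A promoter with CCAAT boxes, the site of the factor NF-Y, is shown for Mki67 because the mitosis list is rich in that word. The 80 bases lie within the 250 before the listed start in RefSeq build GRCm38.p6, with CCAAT and its reverse complement ATTGG in capitals.
Mki67 (chr7:135716479-135716558, minus strand): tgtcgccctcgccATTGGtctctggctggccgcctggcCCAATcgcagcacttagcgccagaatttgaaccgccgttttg
Within 250 bases of the start, on either strand, CCAAT was present in 23 of 29 mitosis members with an entry (79.3%) and in 18 of 28 DNA replication members (64.3%), and in 40.6% of the kept genes and 37.5% of all genes of the table. No binding was measured, and the word is common.

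Nucleolar genes were lower as well. Of 13 kept genes of snoRNA-guided RNA modification, 12 were below 0 in each fit. Lower without overlap were 4, or 6 without Aoah 4, where 5.15% and 6.26% of all genes were so. The list medians were -0.27 and -0.18 without Aoah 4, against -0.20 and -0.03 for all genes. Over 8 tumours most of the shift in the list median was therefore shared by all genes. Dkc1 encodes dyskerin, the pseudouridine synthase that also stabilises telomerase RNA. It was at 53.4, 52.5, 53.7 and 37.7 TPM in Aoah tumours and at 103.6, 77.1, 89.1 and 76.6 TPM in Vector tumours, which left a clear gap. Group means were 49.3 ± 7.77 and 86.6 ± 12.7 TPM (SD, n = 4 each), a ratio of 0.569, or 0.614 without Aoah 4, and the log2 difference was -0.80 (SE 0.19), or -0.68 (SE 0.11). Nolc1, a chaperone of snoRNA particles, was at 52.99, 67.4, 55.4 and 46.1 TPM against 78.1, 69.5, 79.7 and 75.3 TPM, with Aoah 2 close to Vector 2.

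Ribosome biogenesis factors followed, with 28 of 30 kept members below 0, 5 without overlap and a median of -0.43, and 27, 7 and -0.17 without Aoah 4. All genes had medians of -0.20 and -0.03, and 5.15% and 6.26% of them were lower without overlap. Wdr12, of the complex that matures the large subunit, was at 31.2, 26.9, 33.5 and 15.6 TPM in Aoah tumours against 48.6, 37.3, 39.3 and 43.5 TPM. Utp20, of the small-subunit processome, was at 15.7, 15.7, 13.5 and 20.9 TPM against 23.2, 18.8, 25.2 and 22.7 TPM, and overlapped through Aoah 4 only. The 3 nucleolar factors Wdr74, Nol11 and Utp6, which are in no list, were named for a small p without Aoah 4 in these same data. Being so chosen, they do not add to the list counts. They were lower without overlap, with ratios of means of 0.727, 0.670 and 0.696, and of 0.773, 0.741 and 0.752 without Aoah 4. The palindrome CACGTG, bound by MYC, was searched for in the 250 bases before the start. It was present in 0 of 11 modification and 1 of 27 biogenesis genes with a promoter entry, against 9.85% of kept genes. Bases after the start were not searched, and no binding was measured.

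The 3 genes of serine synthesis were lower in all Aoah tumours than in any Vector tumour. They belong to the list of ATF4 and amino acid stress genes, of which 21 were kept, with 6 above 0 and 15 below, or 7 and 14 without Aoah 4. In that list 5 were lower without overlap in both fits, against 5.15% and 6.26% of all genes. They were Phgdh, Psph, Psat1, Shmt2 and Asns, of which the first 3 are the enzymes that make serine from a glycolytic intermediate. Psat1, Asns, Ddit3 and Hspa5 were chosen for mention after their values were seen. Phgdh, which opens the pathway, was at 236.3, 218.5, 230.8 and 128.1 TPM in Aoah tumours against 302.6, 279.9, 300.6 and 300.4 TPM. Psph, which closes it, was at 36.2, 32.5, 38.6 and 25.9 TPM against 45.8, 45.7, 50.6 and 51.3 TPM. Psat1 and Asns, asparagine synthetase, had ratios of means of 0.674 and 0.746, and of 0.799 and 0.820 without Aoah 4. Ddit3 (CHOP), a stress factor of the same list, stood the other way at 178.6, 173.5, 221.6 and 169.9 TPM against 169.2, 149.2, 118.2 and 131.7 TPM, also with no overlap, though Aoah 4 and Vector 1 nearly met.

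Of 21 kept genes of the unfolded protein response and its chaperones, 5 were lower without overlap in both fits and 1 was above 0, or 2 without Aoah 4. Among all genes 5.15% were lower without overlap, and 6.26% without Aoah 4. Above 0 were 30.0% of all genes, and 44.6% without Aoah 4. The medians of this list were -0.38 and -0.13, against -0.20 and -0.03 for all genes. Canx, the lectin chaperone calnexin, was at 508.7, 547.8, 465.7 and 224.9 TPM in Aoah tumours against 617.8, 609.7, 668.6 and 639.7 TPM. Dnajc3, an inhibitor of eIF2 kinases, was at 37.4, 36.6, 33.9 and 15.98 TPM against 39.7, 44.5, 46.3 and 46.6 TPM. Hspa5 (BiP), the main chaperone of the compartment, had a ratio of means of 0.700, or 0.852 without Aoah 4. Heat shock genes were mixed: of 17 kept, 6 were above 0, or 7 without Aoah 4. Lower without overlap were 3, or 5, against the same 5.15% and 6.26% of all genes. Their medians were -0.17 and -0.13, against -0.20 and -0.03 for all genes. Differences ran from -0.78 (Hspa8) to 0.85 (Hspb1) over 8 tumours and from -0.25 (Hspa8) to 0.50 (Hspa1a) over 7.

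**Figure D4:**
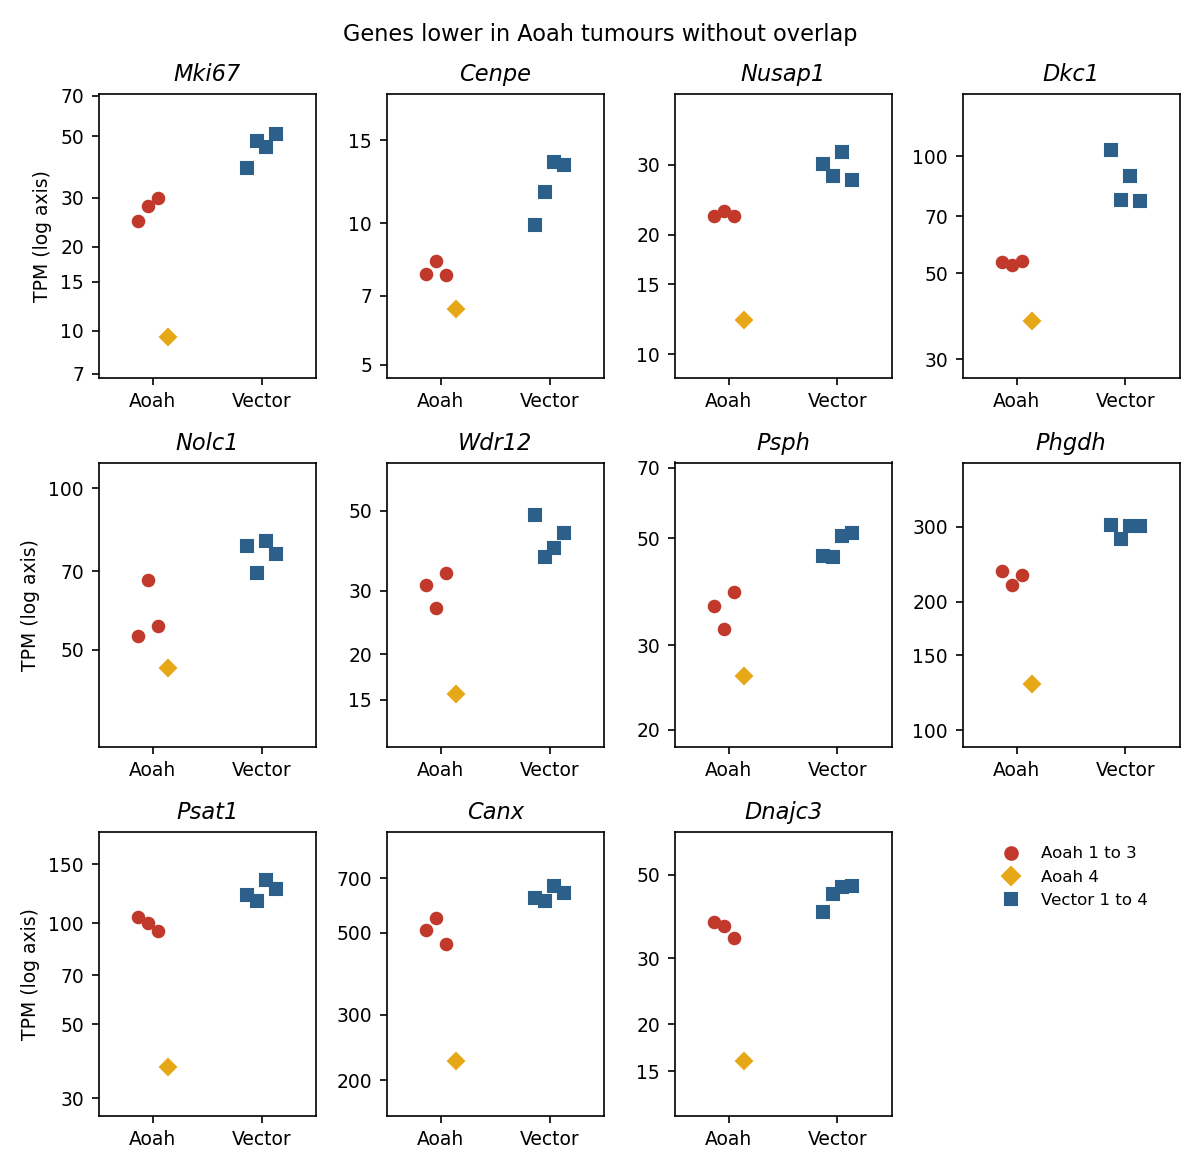
TPM of 11 genes in each tumour on log axes, Aoah tumours left and Vector tumours right in each panel. No Aoah tumour reaches the lowest Vector tumour in any panel, and Aoah 4 (diamond) is the lowest point in every panel, for example at 9.49 TPM for Mki67.

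Further genes of smallest p on the lower side belonged to no list. Prss12, the protease neurotrypsin, was at 19.8, 13.8, 14.6 and 8.40 TPM in Aoah tumours against 22.6, 31.7, 27.3 and 31.0 TPM, a ratio of means of 0.503, or 0.571 without Aoah 4. Ptpn3, a tyrosine phosphatase, was at 5.10, 3.53, 4.29 and 2.91 TPM against 7.82, 8.10, 9.53 and 6.25 TPM. Mecom and Zic5, transcription factors, had ratios of 0.539 and 0.599, and of 0.561 and 0.667 without Aoah 4. Zdhhc2, a palmitoyl transferase, the cytokine Il17b, the nuclease-domain gene Tatdn3, the complex I assembly factor Ndufaf6 and the protease Blmh had ratios of 0.548, 0.540, 0.550, 0.661 and 0.722, and of 0.619, 0.545, 0.617, 0.662 and 0.743 without Aoah 4. All 9 were lower without overlap, where 5.15% of all genes were so, but they were named for a small p in these same data. Cd59a, an inhibitor of complement lysis, was at 6.35, 6.78, 6.87 and 10.6 TPM against 12.8, 10.5, 11.1 and 10.6 TPM and separated only without Aoah 4. Slc39a10, a zinc importer, was at 14.9, 14.3, 12.3 and 3.06 TPM against 20.8, 22.3, 18.4 and 21.2 TPM. The melanosome transport gene Mlph was lower by -0.63 (SE 0.34), or -0.26 (SE 0.11) without Aoah 4, and 19 of 20 pigment genes were below 0, or 17 without Aoah 4, with no member free of overlap.

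Granule genes of cytotoxic lymphocytes were higher in Aoah 1 to 3. Prf1, which encodes perforin, was at 3.96, 3.79, 4.23 and 1.35 TPM in Aoah tumours against 1.63, 1.19, 2.05 and 1.27 TPM in Vector tumours. Gzmb, granzyme B, was at 14.7, 10.8, 11.03 and 3.84 TPM against 3.64, 2.16, 6.78 and 5.10 TPM. In both, Aoah 4 lay in the Vector range and the rest of its group above it, with ratios of means of 2.17 and 2.28, or 2.60 and 2.75 without Aoah 4. Gzmc, granzyme C, was at 3.57, 10.2, 2.88 and 2.72 TPM against 1.95, 1.93, 1.18 and 0.62 TPM, with no overlap in either fit. Non-overlapping and higher were 1 of 9 kept CD8 and cytotoxic genes, and 3 without Aoah 4, with medians of 0.57 and 0.32. Among all genes 0.731% were higher without overlap, and 2.96% without Aoah 4. Of 13 kept T cell genes, 10 were above 0 with a median of 0.22, and 8 with a median of 0.05 without Aoah 4. Lat and Skap1 were higher without overlap and Cd247 lower. Of all genes 5.15% were lower without overlap, or 6.26% without Aoah 4. Skap1, an adaptor of T cell adhesion, was at 1.01 to 1.33 TPM against 0.23 to 0.86, and Cd247, the zeta chain of the receptor, was at 0.84 to 4.71 TPM against 4.96 to 6.58. The levels are low, and how many T cells they stand for was not measured.

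Antigen presentation and interferon genes overlapped for the most part. All 9 kept MHC class II genes were above 0 in both fits, with medians of 0.68 and 0.59. H2-DMa, of the peptide exchange factor, was the 1 that did not overlap, at 96.8, 63.1, 63.5 and 79.9 TPM in Aoah tumours against 53.04, 27.1, 58.6 and 54.0 TPM. Cd74, the invariant chain, was at 828.0, 695.4, 463.7 and 529.7 TPM against 685.9, 218.2, 386.1 and 348.9 TPM, Vector 1 lying among the Aoah values. Zbp1, a nucleic acid sensor, was at 209.2, 163.6, 168.5 and 162.1 TPM against 100.5, 65.1, 150.4 and 137.7 TPM, with no overlap. Irf7, the interferon regulatory factor, was higher by 0.30 (SE 0.23), or 0.50 (SE 0.12) and without overlap when Aoah 4 was left out. Of 25 kept type I interferon genes, 11 were above 0 with a median of -0.05, and 23 with a median of 0.26 without Aoah 4. Higher without overlap were 1 and 3 of the 25, against 0.731% and 2.96% of all genes. Psmb9, an immunoproteasome subunit, was higher by 0.64 (SE 0.30), or 0.35 (SE 0.15) without Aoah 4, against 3.03 in B16F10, and this difference between the models passed only without Aoah 4 (limma adjusted p = 0.0294, against 0.328 with it). Over all genes, that test passed for 5 of 16556, and for 45 without Aoah 4.

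Macrophage genes did not separate the groups. None of 20 kept macrophage and monocyte genes separated the groups in either fit, 17 were above 0 in each, and medians were 0.38 and 0.52. Cx3cr1, the fractalkine receptor, stood the other way at 1.57, 0.51, 0.53 and 0.95 TPM in Aoah tumours against 3.00, 1.42, 1.78 and 1.37 TPM, overlapping through Aoah 1. Among alternatively activated macrophage genes, 9 of 10 were above 0, and all 10 without Aoah 4, with medians of 1.04 and 0.91. Retnla, which encodes the secreted factor RELM-alpha, was at 48.95, 203.8, 5.32 and 992.1 TPM in Aoah tumours against 5.43, 9.87, 4.90 and 4.85 TPM. Aoah 1, 2 and 4 were far above the Vector range, and Aoah 3, with the lowest macrophage average of its group, was inside it. The log2 difference was 3.68 (SE 1.30) and 2.52 (SE 1.01) without Aoah 4, against -4.61 in B16F10, and the difference between the models did not pass (limma adjusted p = 0.399, and 0.107 without Aoah 4). Lyve1, a receptor of resident macrophages and lymph vessels, was at 10.9, 61.8, 2.1 and 15.6 TPM against 11.5, 0.41, 2.16 and 2.83 TPM, highest in Aoah 2. Fibroblast markers were also above 0 in 13 of 16 kept genes, or 15 without Aoah 4, with medians of 0.61 and 0.59, and endothelial markers in 4 of 16, or 2, with medians of -0.30 and -0.26. Among all genes 30.0% were above 0, or 44.6% without Aoah 4. None of the fibroblast or endothelial markers was free of overlap.

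**Figure D5:**
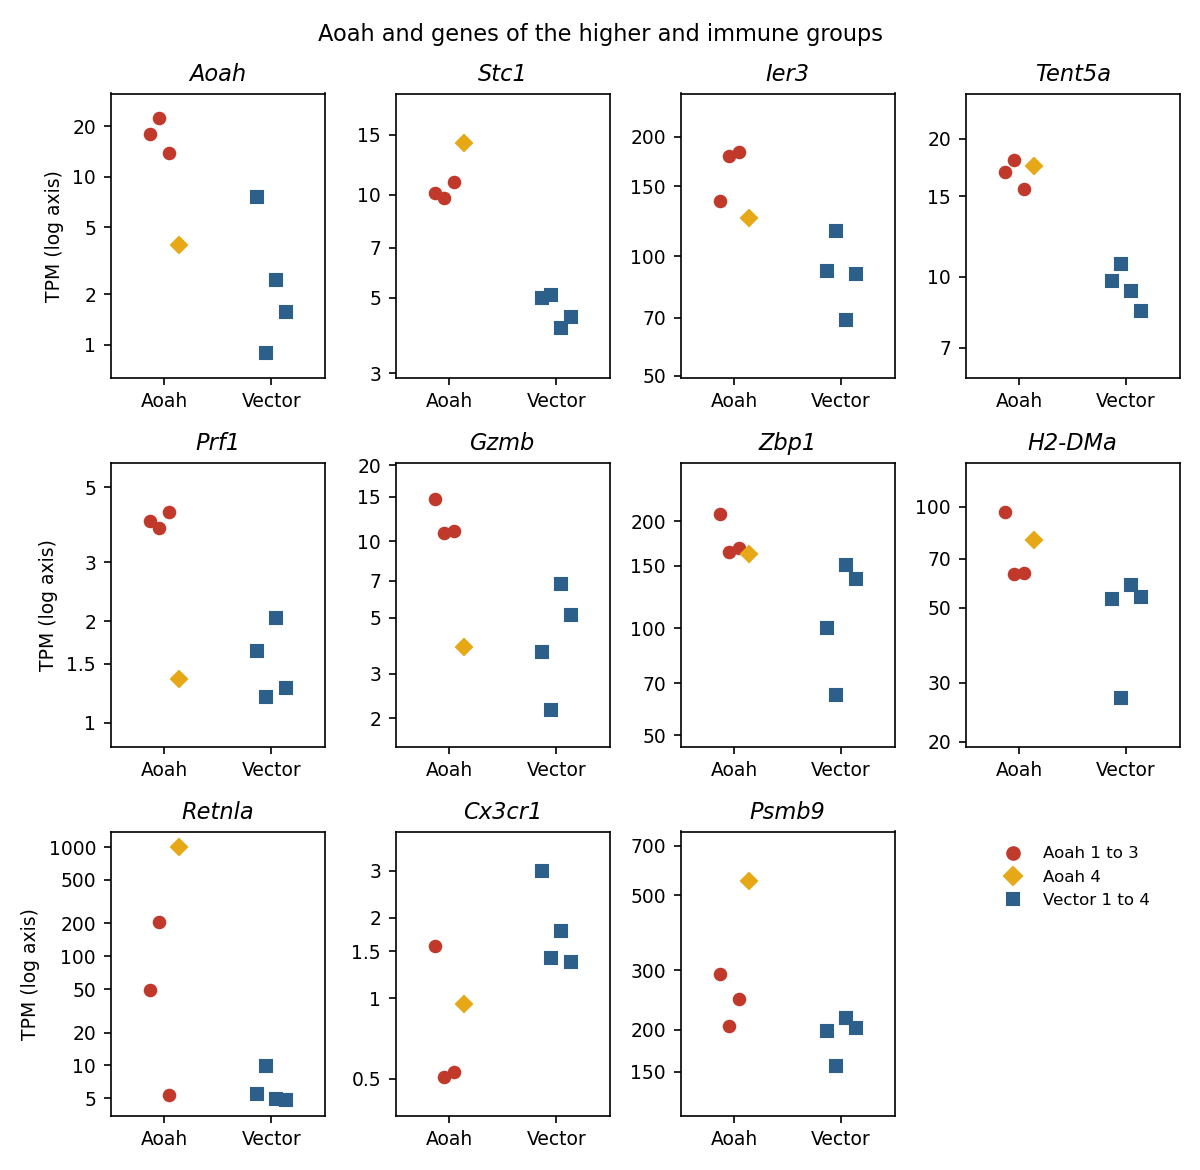
TPM of Aoah and of 10 named genes in each tumour on log axes, Aoah tumours left and Vector tumours right in each panel. Stc1, Ier3, Tent5a, Zbp1 and H2-DMa separate all 8 tumours; Aoah 4 (diamond) falls among the Vector tumours for Aoah, Prf1 and Gzmb and is the highest point at 992.1 TPM for Retnla.

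Receptor repertoires gave no separation. Of 20 deposited measures, 10 could be tested, and 2-sided exact permutation tests gave adjusted p values of 0.857 to 0.943, or 0.490 to 0.914 without Aoah 4. T cell receptor beta clonotypes numbered 6, 5, 4 and 4 in Aoah tumours and 5, 2, 5 and 3 in Vector tumours. Immunoglobulin light chain clones numbered 49, 37, 1 and 13 against 15, 1, 3 and 0, high in Aoah 1, Aoah 2 and Vector 1. So few clones limit any comparison.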

How the data were processed

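Expression values are the authors' log2(TPM + 1) per gene symbol; RSEM and build mm39 are named in the submitters' processing notes, and the annotation is not given in the sources used here. The authors' deposited DESeq2 table holds base means (a signal), log2 fold changes, test statistics (a score) and p-values. Repertoire values are other measures deposited by the authors under the name MiXCR. Here, genes at 1 TPM or more in at least 4 of 8 libraries were fitted with limma 3.58.1 (empirical Bayes with an intensity trend, R 4.3.3) on the deposited log2 values, with Benjamini-Hochberg adjustment over 14228 genes. TPM keeps no depth, so read depth is unknown and no counting interval is given; summed TPM was 992800 to 996590 per library. A log2 difference on the log2(TPM + 1) scale understates changes of low genes. No overlap means that every Aoah tumour lay on 1 side of every Vector tumour. The fit was tested on simulated data drawn for both groups with the spread of the Vector tumours. A tumour that stands apart as Aoah 4 does was not simulated. The members and the 51 lists were chosen with earlier results of these data known. Named genes were Aoah, the 15 genes of smallest p in each direction and fit with a group mean of at least 5 TPM (predicted, small and ribosomal RNA genes left out), genes past the threshold in the authors' table, and the 2 members of smallest p in each list and fit; exceptions are marked. The lists held 976 different members, of which 851 were kept, 118 were below the filter and 7 were not found in the table. Repertoire measures were compared with scipy 1.17.1, and tables were joined with pandas 2.3.3 in Python 3.11.15. Alternatives were leaving out each library, a pseudocount of 0.1, no filter, median-of-ratios scaling, a replicate block, array weights, all 12 libraries and no trend. Some results are not reported here.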

Additional observations from a re-analysis of the deposited data

Results flagged for a closer look

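For each named gene and described list, the tumour farthest from the rest of its group of 4 was compared with the group's range. This was done on the log2(TPM + 1) scale, while the gene values below are printed in TPM. A gene with a tumour far apart in TPM alone is therefore not listed. Of 219 groups examined, 41 held a tumour far from the other ones (Dixon's 95% critical value). The tumour was Aoah 4 in 32 of them, Vector 1 in 1 and another in 8. The critical value is passed by about 5% of groups by chance. Here that is no baseline, since some genes were named for a small p without Aoah 4, which favours genes where Aoah 4 lies apart.

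Aoah 4 was far below Aoah 1 to 3, in TPM, for Ddit4 (40.02 against 128.0 to 156.2), Bnip3 (134.3 against 460.4 to 545.6), Fos (13.5 against 38.5 to 42.6), Itpk1 (12.1 against 46 to 53.4), Zyx (38.8 against 144.3 to 153.2), Gtdc1 (5.48 against 21.3 to 22.9), Hcar1 (1.86 against 9.89 to 12.5), Dkc1 (37.7 against 52.5 to 53.7), Nol11 (17.6 against 27.2 to 29.6), Mki67 (9.49 against 24.8 to 30), Nusap1 (12.2 against 22.3 to 23), Prim1 (33.4 against 60.1 to 67), Phgdh (128.1 against 218.5 to 236.3), Psat1 (37.3 against 95 to 104.1), Asns (58.9 against 88.4 to 95.9), Dnajc3 (16 against 33.9 to 37.4), Hspa5 (233.8 against 786.4 to 846.0), Slc39a10 (3.06 against 12.2 to 14.9), Prf1 (1.35 against 3.79 to 4.23) and Mlph (63.2 against 163.1 to 189.4). It was far above them for Atrx (68.5 against 46.6 to 49.2), Smc6 (45.4 against 20.5 to 22.5), Dek (91.2 against 43.6 to 48.2), Cd59a (10.6 against 6.35 to 6.87) and Gm25777 (14.7 against 0 in each). On the mean log2(TPM + 1) of a list, Aoah 4 stood apart for glycolysis (7.36 against 8.61 to 8.84), mitosis and spindle (4.86 against 5.86 to 5.95), ribosome biogenesis (4.97 against 5.96 to 6.02), ATF4 and amino acid stress (4.73 against 5.78 to 5.83), unfolded protein response and ER chaperones (6.05 against 6.93 to 6.99), heat shock (6.37 against 6.84 to 6.93) and keratinocyte (9.36 against 2.19 to 2.94).

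Single tumours stood apart from their group, in TPM, for Krt10 in Vector 2 (13.2 against 0.23 to 0.62), Phgdh in Vector 2 (279.9 against 300.4 to 302.6), Cd247 in Vector 4 (6.58 against 4.96 to 5.09), H2-DMa in Vector 2 (27.1 against 53 to 58.6), Zbp1 in Aoah 1 (209.2 against 162.1 to 168.4), Retnla in Vector 2 (9.87 against 4.85 to 5.43), Plat in Vector 1 (12.7 against 9.25 to 9.48) and Loxl2 in Vector 3 (17.1 against 26.1 to 27.6). The red blood cell list averaged 5.75 on the log2(TPM + 1) scale in Vector 3, against 6.39 to 6.42 in the other Vector tumours.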

How the results depend on the processing

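Over 8 tumours no gene passed an adjusted p of 0.05 by limma (350 at an unadjusted p below 0.05), and this count became 5 with array weights (Gm25777, Pagr1a, Stc1, Tent5a and n-R5s185), 1 with no intensity trend, 1 with a pseudocount of 0.1 (n-R5s185) and 0 to 1 when 1 tumour was left out, the 1 being without Aoah 4. Genes at an unadjusted p below 0.05 numbered 529 with all 12 libraries fitted, 2186 with array weights, 544 with median-of-ratios scaling, 886 with no filter, and 168 to 1175 leaving out 1 tumour (the extremes being Vector 4 and Aoah 4, with 627 for Aoah 3 and 177 for Vector 3). Genes with no overlap numbered 1040 to 1615 leaving out 1 tumour, with 140 to 421 higher and 881 to 1360 lower; median-of-ratios scaling gave 222 higher and 425 lower, and no filter 227 higher. Directions turned for Tnnc2 (-1.89 with array weights, and -1.47 to 1.78 leaving out 1 tumour), Zyx (0.50 with array weights, 0.18 with median-of-ratios scaling, and -0.20 to 0.45), Smc6 (0.091) and Dek (0.0499) with that scaling, and, leaving out 1 tumour, Ddit4 (-0.0601 to 0.59), Eno2 (-0.10 to 0.68), Hcar1 (-0.0772 to 0.67) and Loxl2 (-0.10 to 0.82). Differences in T cell receptor measures turned too, with alpha clonotypes at -0.583 to 2.08, alpha clones at -1.08 to 2.25 and beta clonality at -0.0282 to 0.0034. Leaving out 1 tumour, list medians ran from 0.13 to 0.71 for hypoxia response, -0.19 to 0.32 for glycolysis, 0.26 to 0.58 for immediate early, -0.56 to -0.15 for mitosis, -0.40 to -0.11 for DNA replication, -0.32 to -0.18 for snoRNA-guided modification, -0.56 to -0.17 for ribosome biogenesis, -0.51 to -0.09 for ATF4, -0.54 to -0.13 for the unfolded protein response, -0.30 to -0.12 for heat shock, 0.32 to 0.74 for cytotoxic, 0.34 to 0.90 for MHC class II, -0.26 to 0.26 for type I interferon and 0.02 to 0.89 for macrophage genes. The cause was not tested. Same-numbered tumours correlated by -0.29 to 0.02 after removing group means. The labels do not say whether the numbers mark pairs, and so few correlations cannot settle it. With a replicate block 0 genes passed, 238 had an unadjusted p below 0.05, and Aoah kept its difference of 1.96. With 4 tumours a group and counts not used here, low genes such as Prf1 or Skap1 have no counting error beside them.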
